A study of Mus musculus with 24 samples.

Results

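The 38 genes described here encode the enzymes that remove superoxide and peroxides, the thioredoxin, glutaredoxin and glutathione systems that keep some of those enzymes reduced, and the transcription factor NRF2 (*Nfe2l2*) with its inhibitor KEAP1. They were chosen by name, from a list of genes of antioxidant defense. All 38 were named by at least 1 of 56 probes on the array. A gene counted as measured where the signal of a probe averaged over 2 times its local background, which held for 36 of the 38 genes and 47 of the 56 probes, among 9139 genes tested in all. The genes below this limit were *Gclm* and *Gss*.

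RNA came from the whole *M. gastrocnemius*, a calf muscle, of 24 male C57BL/6JOlaHsd mice that had arrived at an age of 10 weeks. All mice, in both groups, had 3 weeks on a low-fat diet, then 6 weeks on a diet with 40% of its energy from fat, and were fasted during the test. The 12 *Norm* mice stayed at 20.9% O2 and the 12 *Hypox* mice breathed 12% O2, both for 6 h, so the comparison asks what a short fall in oxygen did to these transcripts in fasted, fat-fed mice. Each array held the RNA of 1 mouse in the red dye Cy5 and a pool of all samples in the green dye Cy3, and a value is the log2 ratio of the mouse to that pool. A difference of 1 on this scale is a doubling.

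Superoxide, mostly made by mitochondria and oxidases, is turned into hydrogen peroxide by superoxide dismutases, and catalase, peroxiredoxins and glutathione peroxidases turn the peroxide into water. For the peroxiredoxins and glutathione peroxidases, thioredoxin and glutathione supply the electrons, which come from NADPH through the reductases of both. NRF2 is bound by KEAP1 and degraded under resting conditions; when cysteines of KEAP1 are oxidized, NRF2 enters the nucleus and raises the transcription of genes with an antioxidant response element, among them *Nqo1*, *Hmox1*, *Srxn1*, *Txnrd1*, *Gclc* and *Gclm*. Contracting muscle makes superoxide, and oxidative fibers are known for higher levels of many of these enzymes.

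All 12 skeletal muscle markers listed, such as *Acta1* and *Ckm*, were measured. The arrays differed in brightness. The mean Cy5 signal lay between 58.3 and 933 for *Norm* and between 63.5 and 1014 for *Hypox*, and 9.42% to 37.3% of the spots of a *Norm* array and 12.0% to 37.8% of those of a *Hypox* array were well above background. The 6 slides each held 2 arrays of either group, with slide 1 the dimmest (58.3 to 102) and slide 6 the brightest (645 to 1014). Among the 36 measured genes, 21 were well above background on all 24 arrays. Array *Hypox* 2 held the highest or lowest value of 10 of the 36 genes, more than any other array, followed by *Norm* 3 with 8.

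After 6 h of hypoxia *Nqo1* was higher, and the large majority of antioxidant enzymes differed by less than the spread between mice. *Keap1* was slightly lower in the main fit, but its direction changed with the processing, as described below. At an unadjusted *P*-value under 0.05, the threshold of the study, 3 of the 36 genes passed the limma test, against 12.2% of all genes tested. The gene that was higher was *Nqo1* (7.17% of all genes were called higher) and the genes that were lower were *Keap1* and *Glrx2* (5.07% of all genes were called lower), although the *Glrx2* value belongs to a probe whose letters recur in probes of other names, described below. After Benjamini-Hochberg adjustment over all genes 0 of the 36 passed, where 0.339% of all genes did. Student's *t*-test, the test of the study's methods, gave the same counts of 3 and 0 on these log2 ratios. On the authors' deposited values that *t*-test gave an unadjusted *P*-value of 0.0031 for *Nqo1*, 0.81 for *Keap1* and 0.85 for the brightest *Glrx2* probe. There *Prdx4* was lower (-0.23, *P*-value = 0.0438) and the dimmer *Prdx1* probe was higher (0.24, *P*-value = 0.0417).

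The median log2 fold change (*Hypox* minus *Norm*) over the 36 genes was 0.020, beside 0.029 over all genes tested. Of the 36 genes, 21 had a positive and 15 a negative fold change, a positive share of 58.3% beside 58.8% over all genes. The spread between mice was also close to that of the other genes, with a median SD of 0.24 in *Norm* and 0.26 in *Hypox* (0.22 and 0.24 over all genes). For 32 of the 36 genes the 95% interval of the fold change lay between -0.5 and 0.5 on the log2 scale in the main fit. The share of all genes that did so was not counted. The interval reflects the spread between mice within this processing and not the choice of processing, so it does not bound the difference that was missed. *Gpx7*, for example, had a fold change of 0.14 in the main fit and 0.54 with the scanner's processed signals.

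**Figure D1:**
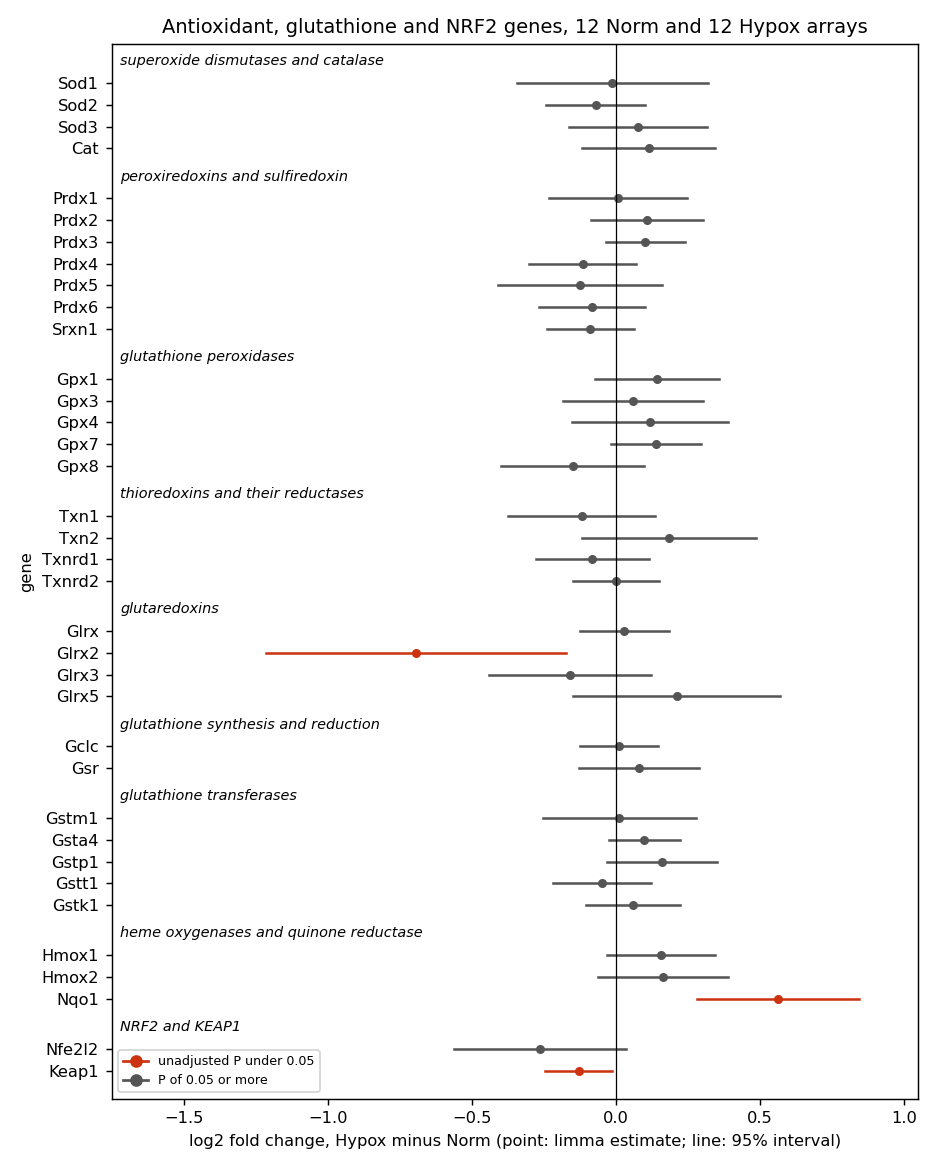
Log2 fold change (*Hypox* minus *Norm*) of the 36 measured genes, grouped by role, as the limma estimate (point) with its 95% interval (line) over 12 arrays per group. *Nqo1* at 0.56 lies to the right of 0, *Keap1* at -0.13 and the brightest probe of *Glrx2* at -0.69 lie to the left, and the intervals of the other 33 genes include 0.

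*Nqo1* encodes NAD(P)H quinone dehydrogenase, which reduces quinones by a pair of electrons at once and is a widely used readout of NRF2. In *Norm* its log2 ratio had a lowest value of -0.46, a median of -0.018 and a highest of 0.44. In *Hypox* these values were 0.10, 0.53 and 1.73. The groups overlapped, but 7 of the 12 *Hypox* arrays lay above every *Norm* array and no *Hypox* array lay below the *Norm* median. Group means were -0.0081 ± 0.24 in *Norm* and 0.55 ± 0.44 in *Hypox* (SD, n = 12), a log2 fold change of 0.56 (SE 0.14, 95% interval 0.28 to 0.84, limma *P*-value = 0.000325, adjusted *P*-value = 0.0620).

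*Nqo1* was higher in *Hypox* on 6 of 6 slides, by between 0.36 on slide 2 and 1.04 on slide 3. The large value of slide 3 came with *Hypox* 2, which held the highest *Nqo1* value of all arrays. Without *Hypox* 2 the log2 fold change was 0.46 and the adjusted *P*-value 0.0462. The authors' normalized value of the same probe gave a log2 fold change of 0.59 (*P*-value = 0.00228). Over 37 alternative settings the fold change stayed between 0.46 and 0.68, with an unadjusted *P*-value of at most 0.0310, while the adjusted *P*-value ran from 0.00571 with array weights to 0.842 with the deposited values. The probe was 5.94 times brighter than background and well above it on 10 of 12 arrays in each group.

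Several members were read at a single position, so the probe decides what a value means. The first 30 of the 60 bases are given here for the probes of the genes that passed the threshold and of *Nfe2l2*, with capitals for letters that lie in runs of 20 or more shared with probes of other names on the array. The capitals show at a glance that the probes differ in kind.
Nqo1 probe: taggtcatttatgcaatattcgccattttc
Keap1 probe: tggggattactgtgcaccagggcaagatct
Nfe2l2 probe: ctcaagttaatttcttaggcaccatttggg
Glrx2 brightest probe: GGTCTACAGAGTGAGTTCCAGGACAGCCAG
Glrx2 next probe: tgtggattgccttcataaagatgattcaga
Glrx2 dim probe: agaaggtaacagggtatgttaattttcaat
In the array's mm9 coordinates these 60-base probes lie at chr8:109912440-109912499 (*Nqo1*, minus strand), chr9:21035292-21035732 (*Keap1*, minus strand, over a longer genomic stretch than the probe itself), chr2:75513771-75513830 (*Nfe2l2*, minus strand) and, for *Glrx2* in the order shown and on the plus strand, chr1:145596708-145596767, chr1:145593845-145593904 and chr1:145596567-145596626. Exon and UTR annotation of mm9 was not used here.

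*Glrx2* encodes a glutaredoxin of mitochondria, which uses glutathione to reduce mixed disulfides on proteins. The brightest probe named *Glrx2* ranged in *Norm* from -0.13 over a median of 1.30 to 2.72, and in *Hypox* from -0.17 over 0.63 to 2.30, so the groups overlapped over nearly their whole range. Its log2 fold change was -0.69 (SE 0.25, *P*-value = 0.0109, adjusted *P*-value = 0.250), negative on 5 of 6 slides (-1.34 on slide 1, 0.049 on slide 6). Its signal was 1452 times the background, where that of the other 35 genes was between 2.19 and 208 times.

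All 60 bases of that probe lie in runs shared with probes of other names. Its letters resemble a B1 element, a short interspersed repeat present in a great many mouse transcripts, but this was read from the letters alone and no repeat annotation was used here to check it. It shares such runs with 13 other probes, named for 13 other genes or transcripts, and all 13 passed the filter. Of these, 13 of 13 had a negative log2 fold change, from -0.62 to -0.016 with a median of -0.44. At an unadjusted *P*-value under 0.05, 8 were lower. Among all 14312 probes past the filter, 6202 had a negative fold change and 940 were lower at that threshold. The 13 probes were picked for their sequence after the *Glrx2* value was seen. They share letters with the brightest *Glrx2* probe, so this is a description without a test. The next probe of *Glrx2*, whose letters recur in no probe of another name, had a log2 fold change of 0.089 (SE 0.094, *P*-value = 0.353). The third probe lay below the brightness limit at 1.74 times background, with a value of 0.041. Since its letters recur elsewhere and the other probes differ, the lower value cannot be assigned to *Glrx2* with certainty, and with the next probe in its place 2 of the 36 genes passed the unadjusted threshold.

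**Figure D2:**
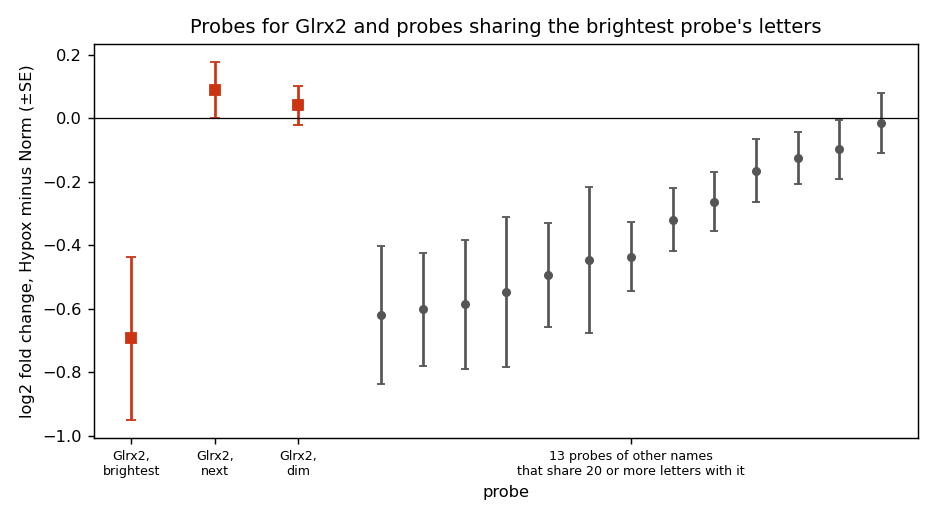
Log2 fold change (*Hypox* minus *Norm*, ±SE, limma over 24 arrays) of the 3 probes named *Glrx2* (squares, fit without the brightness filter) and of the 13 probes of other names that share a run of 20 or more letters with the brightest of them (circles, sorted). The brightest *Glrx2* probe at -0.69 and all 13 sharing probes lie below 0, while the other *Glrx2* probes lie at 0.089 and 0.041.

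Sharing of letters was rare otherwise: 3 of the 56 probes shared a run of 20 letters with a probe of another name, and apart from the *Glrx2* probe these were 1 probe each of *Sod1* and *Prdx6*, with 1 partner each. The brightest probe of *Gstm1*, a glutathione transferase of the mu class, has mm9 coordinates on chromosome 5, whereas RefSeq places the gene on chromosome 3. Its log2 fold change was 0.012 (*P*-value = 0.927), and that of the *Gstm1* probe on chromosome 3 was 0.20 (*P*-value = 0.186). Mu class genes are close paralogs, so the *Gstm1* values are uncertain.

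Of the regulators, *Keap1* was lower and *Nfe2l2* did not pass the threshold. KEAP1 is the adaptor that hands NRF2 to a ubiquitin ligase and senses electrophiles through its cysteines. *Keap1* in *Norm* ranged from -0.71 over a median of -0.49 to -0.25, and in *Hypox* from -0.71 over -0.60 to -0.47. The groups overlapped, with the *Hypox* values packed into the lower part of the *Norm* range (SD 0.13 in *Norm*, 0.076 in *Hypox*). The means of -0.47 and -0.60 gave a log2 fold change of -0.13 (SE 0.057, 95% interval -0.25 to -0.012, limma *P*-value = 0.0314, adjusted *P*-value = 0.350).

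*Keap1* was lower in *Hypox* on 6 of 6 slides, from -0.32 on slide 1 to -0.0048 on slide 2. The call rested on single arrays: the *P*-value was 0.0607 without *Norm* 4, 0.0616 without *Norm* 12, 0.0524 without *Hypox* 11 and 0.0527 without *Hypox* 12. With slide 1 left out the fold change was -0.091 (*P*-value = 0.179), and with Cy5 alone it was -0.13 (*P*-value = 0.139). The threshold was passed with Student's *t*-test on the same log2 ratios (*P*-value = 0.00678) and with the scanner's processed signals (-0.16, limma *P*-value = 0.0338). The fold change turned positive, without passing the threshold, with the deposited values (0.054) and with median centring of the arrays (0.21, where the median over all genes was 0.25).

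NRF2 itself is regulated mostly at the protein level, so its transcript is a partial measure of its activity. *Nfe2l2* ranged in *Norm* from -0.32 over a median of 0.084 to 0.68 and in *Hypox* from -1.01 over -0.15 to 0.75. The *Hypox* arrays were the more spread (SD 0.46 against 0.29), with 4 of 12 below and 1 above every *Norm* array. The log2 fold change was -0.26 (SE 0.15, 95% interval -0.56 to 0.037, *P*-value = 0.0829, adjusted *P*-value = 0.473). On 5 of 6 slides *Hypox* was lower, down to -0.60 on slide 1, but on slide 6, the brightest, it was higher by 0.38. *Nfe2l2* passed the threshold in 5 of 37 alternatives, among them the scanner's processed signals (-0.50, *P*-value = 0.0453) and Cy5 alone (-0.43, *P*-value = 0.0273). It also passed without *Hypox* 7 (-0.31, *P*-value = 0.0434) or *Hypox* 9 (-0.34, *P*-value = 0.0146), the *Hypox* arrays of slide 6.

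**Figure D3:**
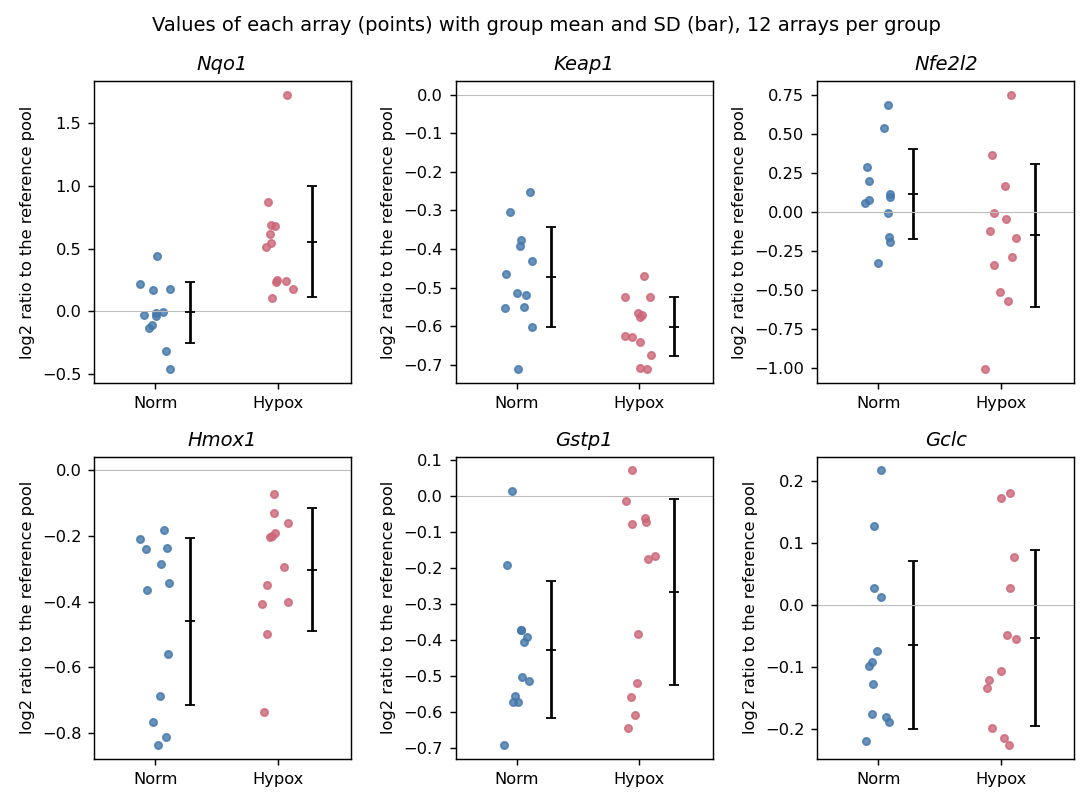
Log2 ratio to the reference pool of each array (points, 12 per group) with group mean and SD (bars) for 6 genes; each panel has its own vertical scale. *Nqo1* is higher in *Hypox* with 7 of 12 arrays above every *Norm* array, *Keap1* is slightly lower, and the groups of *Nfe2l2*, *Hmox1*, *Gstp1* and *Gclc* overlap widely.

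The other classical NRF2 targets did not pass the threshold. *Hmox1*, heme oxygenase of the inducible type, which is also a known target of hypoxia signaling, had a lowest, median and highest value of -0.84, -0.35 and -0.18 in *Norm* and of -0.74, -0.25 and -0.071 in *Hypox*. The groups overlapped, with 3 *Hypox* arrays above every *Norm* array. Its means of -0.46 ± 0.26 and -0.30 ± 0.19 differed by 0.16 (SE 0.092, *P*-value = 0.0984, adjusted *P*-value = 0.50), positive on 4 of 6 slides. *Hmox2*, its constitutive counterpart, had a fold change of 0.16 (*P*-value = 0.148). *Hmox1* was dim, at 3.24 times background.

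*Srxn1* encodes sulfiredoxin, which repairs overoxidized peroxiredoxins. It ranged from -0.29 over 0.19 to 0.34 in *Norm* and from -0.22 over 0.040 to 0.28 in *Hypox*, with full overlap. The means of 0.12 ± 0.18 and 0.030 ± 0.15 gave a log2 fold change of -0.089 (SE 0.074, *P*-value = 0.237, adjusted *P*-value = 0.641), negative on 3 of 6 slides.

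*Txnrd1*, the cytosolic thioredoxin reductase, ranged from -1.001 over -0.56 to -0.068 in *Norm* and from -0.87 over -0.69 to -0.041 in *Hypox*. Its groups overlapped almost fully, with 1 *Hypox* array above every *Norm* array. The means of -0.55 ± 0.26 and -0.63 ± 0.21 gave a fold change of -0.082 (SE 0.096, *P*-value = 0.403, adjusted *P*-value = 0.753), negative on 4 of 6 slides.

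*Gclc* encodes the catalytic subunit of glutamate-cysteine ligase, the rate-limiting enzyme of glutathione synthesis. It ranged from -0.22 over -0.095 to 0.22 in *Norm* and from -0.23 over -0.081 to 0.18 in *Hypox*. With means of -0.065 ± 0.14 and -0.054 ± 0.14, the groups lay on top of each other. The fold change was 0.011 (SE 0.066, 95% interval -0.12 to 0.15, *P*-value = 0.870, adjusted *P*-value = 0.961), positive on 3 of 6 slides. The modifier subunit *Gclm* was not measured, at 1.72 times background, and neither was glutathione synthetase *Gss*, at 1.64 times. *Gss* had a log2 fold change of 0.17 (*P*-value = 0.00306) in the fit without the brightness filter but was well above background on 1 *Norm* and 5 *Hypox* arrays only, and the deposited values of the same probe gave 0.041.

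NRF2 binds the antioxidant response element, and the promoter windows of RefSeq (GRCm38.p6, 250 bases before to 50 bases after each start) were searched for its core, TGACNNNGC, on both strands. Of the 38 genes 32 had such a window, and 6 of these held the core, beside 14.0% of all 27025 genes with a window. These sites are shown because they mark the members that carry the letters close to their start, with the core in capitals and each read along the strand that matches.
Sod1: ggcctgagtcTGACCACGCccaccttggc
Prdx1: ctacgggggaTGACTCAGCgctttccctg
Srxn1: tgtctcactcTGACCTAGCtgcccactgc
Txnrd1: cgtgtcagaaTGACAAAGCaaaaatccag
Gclm: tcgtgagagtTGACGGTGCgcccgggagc
Nfe2l2: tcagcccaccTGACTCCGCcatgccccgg
In GRCm38.p6 they lie on the minus strand at chr16:90220696-90220724, chr4:116685456-116685484, chr2:152105542-152105570, chr10:82859104-82859132, chr3:122245413-122245441 and chr2:75704885-75704913. The core of *Prdx1* contains TGACTCA, the letters of an AP-1 site. The window of *Nqo1* did not hold the core, and *Sod3*, *Prdx6*, *Gclc*, *Gsr*, *Gsta4* and *Hmox1* were without an entry. Sequence outside the windows was not searched, so a site of *Nqo1* or another gene farther from the start would be missed. The core of the hypoxia response element, ACGTG, was found on either strand in 10 of the 32 genes, *Keap1* and *Gstp1* among them, beside 21.8% of all genes. A match is a string of letters and no proof of a bound site, and of the genes with the antioxidant core none of the 5 measured passed the threshold.

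Of the superoxide dismutases and catalase, 0 of 4 passed the threshold, with log2 fold changes between -0.069 and 0.11. *Cat*, which splits hydrogen peroxide in peroxisomes, had the smallest *P*-value of them. It ranged from -0.58 over -0.064 to 0.28 in *Norm* and from -0.37 over -0.0090 to 0.82 in *Hypox*, with 1 *Hypox* array above the *Norm* range. Means of -0.094 ± 0.27 and 0.020 ± 0.30 gave a fold change of 0.11 (SE 0.11, *P*-value = 0.319, adjusted *P*-value = 0.702), positive on 3 of 6 slides, and its other probe gave 0.10. The cytosolic *Sod1*, mitochondrial *Sod2* and extracellular *Sod3* had fold changes of -0.013, -0.069 and 0.077. *Sod1* was the more variable in *Hypox* (SD 0.56 against 0.23), where its highest value was 1.83 on *Hypox* 12.

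Of the peroxiredoxins, thiol peroxidases that mostly use thioredoxin, and sulfiredoxin, 0 of 7 passed, with fold changes between -0.12 and 0.11. *Prdx3*, the mitochondrial peroxiredoxin, ranged from -0.61 over -0.45 to -0.023 in *Norm* and from -0.51 over -0.31 to -0.11 in *Hypox*, so that the *Hypox* values lay inside the *Norm* range. The means of -0.41 ± 0.16 and -0.31 ± 0.12 gave 0.10 (SE 0.066, *P*-value = 0.135, adjusted *P*-value = 0.550), positive on 5 of 6 slides. *Prdx2*, of the cytosol, had a fold change of 0.11 (*P*-value = 0.263) that was positive on 6 of 6 slides, from 0.032 to 0.16. The probes of *Prdx1* disagreed: the brightest gave 0.0088 (*P*-value = 0.940) and the other 0.22 (SE 0.079, *P*-value = 0.0116). Those of *Prdx5* lay at -0.12 and 0.12, neither past the threshold.

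Of the glutathione peroxidases 0 of 5 passed, 4 of them with a positive fold change, over a range of -0.15 to 0.14. *Gpx7*, a peroxidase of the endoplasmic reticulum, ranged from -0.37 over -0.061 to 0.29 in *Norm* and from -0.24 over 0.096 to 0.24 in *Hypox*. The *Hypox* values again lay inside the *Norm* range. Means of -0.049 ± 0.20 and 0.091 ± 0.14 gave 0.14 (SE 0.076, *P*-value = 0.0763, adjusted *P*-value = 0.461), positive on 4 of 6 slides, from a dim probe at 2.19 times background. *Gpx7* passed the unadjusted threshold without *Norm* 1, without *Norm* 5 or without *Hypox* 3. *Gpx1*, the main cytosolic enzyme, and *Gpx4*, which reduces lipid peroxides in membranes, had fold changes of 0.14 (*P*-value = 0.187) and 0.12 (*P*-value = 0.376).

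Of the thioredoxins and their reductases 0 of 4 passed. *Txn2*, the mitochondrial thioredoxin, ranged from -0.62 over -0.18 to 0.15 in *Norm* and from -0.66 over -0.073 to 1.34 in *Hypox*. The spread in *Hypox* was wide (SD 0.50 against 0.23), and its highest value was on *Hypox* 2. The means of -0.22 and -0.035 gave 0.19 (SE 0.15, *P*-value = 0.219, adjusted *P*-value = 0.628), positive on 3 of 6 slides. The cytosolic *Txn1* had a fold change of -0.12 (*P*-value = 0.347) and the mitochondrial reductase *Txnrd2* one of -0.00054. Among the glutaredoxins other than *Glrx2*, *Glrx*, *Glrx3* and the iron-sulfur cluster protein *Glrx5* had fold changes of 0.029, -0.16 and 0.21, and none passed.

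Glutathione reductase *Gsr*, which regenerates glutathione with NADPH, ranged from -0.50 over 0.18 to 0.72 in *Norm* and from -0.16 over 0.23 to 0.51 in *Hypox*. The *Hypox* values lay within those of *Norm*. Means of 0.15 ± 0.30 and 0.23 ± 0.20 gave 0.080 (SE 0.10, *P*-value = 0.437, adjusted *P*-value = 0.775), positive on 5 of 6 slides, and its other probe gave -0.034.

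Glutathione transferases couple glutathione to electrophiles, and 0 of 5 passed, 4 with a positive fold change. *Gstp1*, of the pi class, ranged from -0.69 over -0.45 to 0.015 in *Norm* and from -0.64 over -0.17 to 0.072 in *Hypox*. The groups overlapped, with 1 *Hypox* array above the *Norm* range. Means of -0.43 ± 0.19 and -0.27 ± 0.26 gave 0.16 (SE 0.093, *P*-value = 0.0964, adjusted *P*-value = 0.496). *Gstp1* was higher on 6 of 6 slides, by 0.023 to 0.40, and both of its probes gave 0.16. With *Nqo1*, *Prdx2* and *Keap1* it was 1 of 4 genes that kept a single direction on every slide. The share of all genes that did so was not counted, so this is a description only. *Gsta4*, which detoxifies products of lipid peroxidation, had 0.098 (*P*-value = 0.115), with 5 *Hypox* arrays above every *Norm* array, from a dim probe.

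**Figure D4:**
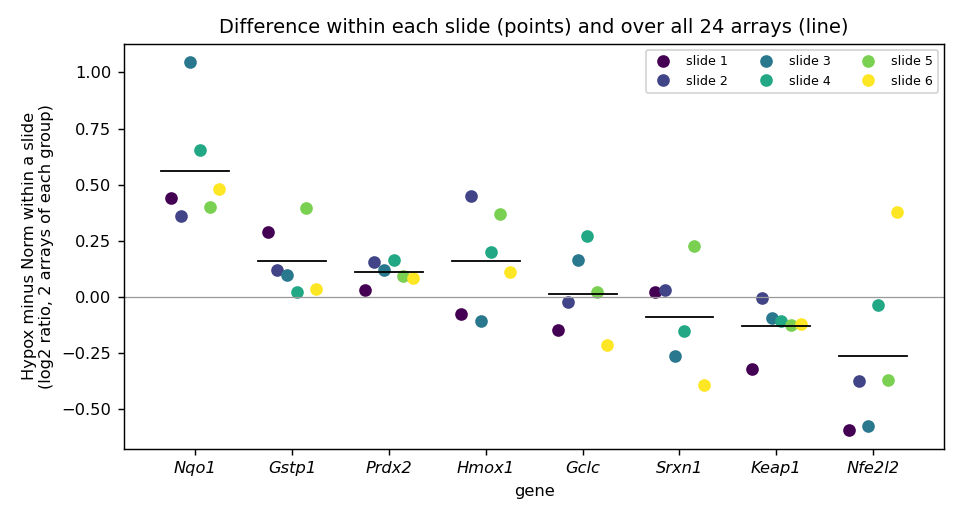
Difference *Hypox* minus *Norm* within each of the 6 slides (points, mean of 2 arrays per group, log2 ratio) for 8 genes, with the log2 fold change over all 24 arrays as a line. *Nqo1*, *Gstp1* and *Prdx2* lie above 0 and *Keap1* below 0 on every slide, while *Nfe2l2* is negative on 5 slides and at 0.38 on slide 6.

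Neighbors of these pathways were counted in the same fit, in which 7.17% of all genes were called higher and 5.07% lower. The lists were not tested as sets. Of 21 further NRF2 target genes measured, such as those of NADPH supply, iron storage and heme breakdown, 0 were higher and 0 lower at an unadjusted *P*-value under 0.05, with fold changes between -0.26 and 0.16. Of 11 partners and regulators of NRF2, 0 were higher and 2 lower: the coactivator *Crebbp* (-0.28, SE 0.089, *P*-value = 0.00418, adjusted *P*-value = 0.189) and *Mafg*, a small Maf protein that pairs with NRF2 on DNA (-0.31, SE 0.11, *P*-value = 0.0112, adjusted *P*-value = 0.252). Among 6 genes of enzymes that make superoxide or hydrogen peroxide 0 passed in either direction.

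Beside 7.17% of all genes called higher and 5.07% called lower, 3 of 18 other genes of the glutathione system were higher and 0 lower. These were *Hagh*, the glyoxalase that frees glutathione from lactoylglutathione (0.51, SE 0.13, *P*-value = 0.000646, adjusted *P*-value = 0.0899), the omega class transferase *Gsto1* (0.30, *P*-value = 0.0414) and *Ggct* (0.18, *P*-value = 0.0497), an enzyme of glutathione breakdown. Of 21 further genes of thioredoxin-like proteins, methionine sulfoxide reductases, selenoproteins and metallothioneins, 3 were higher and 0 lower. The metallothioneins *Mt1* (0.52, SE 0.12, *P*-value = 0.000220, adjusted *P*-value = 0.0583) and *Mt2* (0.62, SE 0.15, *P*-value = 0.000355, adjusted *P*-value = 0.0651), which bind zinc and copper and are induced by metals and glucocorticoids, had fold changes close in size to that of *Nqo1*. The third was *Msrb2*, a mitochondrial methionine sulfoxide reductase (0.36, *P*-value = 0.0142). None of the genes of these lists passed after adjustment over all genes.

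Whole muscle holds other cells, and fewer cells of a type cannot be told apart from less RNA per cell. Single markers of several cell types passed the unadjusted threshold, where 7.17% of all genes were called higher and 5.07% lower. The mean log2 ratio per array overlapped between the groups in every list below. Of the adipocyte markers 6 of 8 were measured and 3 were lower, among them *Adipoq* (-0.33), and their mean log2 ratio per array was -0.52 to 0.66 across *Norm* and -0.75 to -0.050 across *Hypox*. All 6 had a negative fold change (median -0.28), where 58.8% of all genes tested had a positive one. Of the nerve markers 7 of 8 were measured and 3 were lower, with array means from -0.44 to 0.55 and from -0.58 to 0.18. All 7 had a negative fold change (median -0.17). Of the endothelial markers 7 of 10 were measured and 2 were higher, *Cdh5* and *Cldn5*. Of the 7, 4 had a positive and 3 a negative fold change, with a median of 0.020. Array means of this list ran from -0.37 to -0.044 and from -0.22 to -0.084. Of the slow fiber markers 9 of 9 were measured and 2 were higher, with array means from -2.05 to 0.56 and from -0.22 to 0.19. All 9 had a positive fold change (median 0.34). Red blood cell markers (5 of 10 measured, 1 higher; array means -0.86 to 0.0043 and -0.49 to 0.57), fibroblast markers (8 of 8, 2 lower; -0.44 to 0.25 and -0.43 to 0.37), lung markers (2 of 8, 1 higher; -0.90 to -0.11 and -0.72 to 1.33) and markers of macrophages and neutrophils (4 of 11, 0 called; -0.32 to 0.26 and -0.45 to 0.33) overlapped between the groups. Fold changes were positive for 5 of 5 red blood cell and 2 of 2 lung markers. They were positive for 4 and negative for 4 fibroblast markers, and positive for 1 and negative for 3 of macrophages and neutrophils. The part of these cell types in the values of *Nqo1*, *Keap1* and the other genes was not tested.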

How the data were processed

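For 24 arrays (12 *Norm*, 12 *Hypox*) the authors deposited spot intensities per channel, scanned with Agilent Feature Extraction 10.7.3.1, and a table of log2 values that the authors normalized with GeneMaths XT, whose scaling and use of Cy3 are not given in the sources used here. All mice were read in Cy5, as the descriptions state, although a few *Hypox* labels give another dye name. Control spots and 7260 flagged readings were left out, background was corrected by normexp with an offset of 50, the log2 ratio Cy5/Cy3 was loess-normalized within arrays, and spots of a probe were averaged. Probes over 2 times background with at most 4 missing arrays were kept, and the brightest stood for its gene. Groups were compared with limma 3.58.1 in R 4.3.3, two-sided, unblocked, adjusted over 9139 genes. The fit was checked on simulated data, where 97.5% of 200 genes given a log2 change of 1 were recovered, with 12 false calls. That change is larger than the difference of any member, so the check does not show how well smaller changes are found. Each replicate was 1 mouse, and the precision is limited by 12 arrays per group.

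The members, gene lists and named genes (genes past the threshold, the core NRF2 genes, and the smallest *P*-value in each role) were chosen with earlier results of these data known. Alternatives covered dye correction, centring, Cy5 alone, deposited values, test, filters, probe choice, slide and replicate blocks, array weights and each array left out. 2 more, another *Glrx2* probe and leaving out slide 1, were added after seeing the data. Promoter windows are from RefSeq (GRCm38.p6).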

Additional observations from a re-analysis of the deposited data

How the results depend on the processing

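*Nqo1* kept its direction and its side of the unadjusted threshold in all 37 alternatives, and *Glrx2* and *Keap1* did not. The count of members past the unadjusted threshold (3) became 1 with median centring and 1 with the deposited values, 6 with array weights, and 2 to 5 with single arrays left out. The count of higher members (1) became 2 without the brightness filter, 4 with array weights, where *Gsta4* (0.11), *Gstp1* (0.25) and *Hmox1* (0.19) were added, and 1 to 3 with single arrays left out. The count of lower members (2) became 0 with median centring, 0 with the deposited values, 1 with Cy5 alone, 1 with the next *Glrx2* probe, 1 with slide 1 left out, and 1 to 3 with single arrays left out. The count past the adjusted threshold (0) became 1, *Nqo1*, with slide as a block, with array weights, without *Norm* 9 and without *Hypox* 2, so it ran from 0 to 1 with single arrays left out. The median over the members (0.020) became 0.33 with median centring, where that of all genes was 0.25. It became 0.16 with the deposited values, where that of all genes was 0.026. The deposited values covered 38 members and 11533 genes, and the fit without the brightness filter 38 and 22328, in place of 36 and 9139. With single arrays left out, the median over the members ran from 0.0060 to 0.052. *Glrx2* reversed to 0.091 with median centring and to 0.089 with its next probe. It kept its direction but lost the threshold with Cy5 alone (-0.34) and with the deposited values (-0.080). *Keap1* reversed to 0.21 with median centring and to 0.054 with the deposited values. The cause of these changes was not tested, apart from the change of probe. Median centring left 32 genes of all 9139 past the unadjusted threshold, all of them higher, where loess left 655 higher and 463 lower.

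Replicate numbers are shared by both groups but do not mark pairs: deviations of same-numbered arrays correlated between -0.20 and 0.51, above 0.1 in 3 of 12, and 2 of 12 *Norm* arrays correlated best with their own number. With the replicate block 3 members passed the unadjusted threshold (1 higher, 2 lower) and 0 the adjusted one, and the median over the members was 0.030. Among all genes 1194 passed the unadjusted threshold in place of 1118. *Nfe2l2* then passed (*P*-value = 0.0356) and *Keap1* did not (*P*-value = 0.0756). Brightness limits the dim members: *Gpx7*, *Gsta4*, *Prdx4* and *Glrx* were under 3 times background.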
